A study of Mus musculus with 46 samples.

Results

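Complement is a set of blood and tissue proteins and their receptors, and 7 of its genes were described here in 46 single cells from the mouse cochlea. They were C1qa, C1qb and C1qc, which encode the 3 chains of C1q, C3 and C4b, which encode central components, Serping1, which encodes the C1 inhibitor, and C3ar1, which encodes the receptor for the C3a fragment. They were taken by symbol as 7 of the 29871 genes in the deposited expression table, and the cells were split by C1qb into 4 macrophages, with at least 500 reads per 1000000 reads (CPM), and 42 mesenchymal cells, with less. The lowest C1qb value inside the macrophage class was 3048 CPM, in cell 43, and the highest outside it was 147.9 CPM, in cell 22. The mesenchymal cells were divided further by 500 CPM of Ibsp, which encodes a bone matrix protein, and of Otos, which encodes otospiralin of cochlear fibrocytes. This gave 12 Ibsp-high cells, 9 Otos-high cells and 21 remaining cells. Ibsp was at 7618 CPM in the lowest Ibsp-high cell and 106.7 CPM in the highest mesenchymal cell outside the class, and Otos was at 1213 CPM in the lowest Otos-high cell and 108.1 CPM in the highest outside.

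All cells came from C57BL/6 mice at postnatal day 10 with the genotype given as Dio2creERt2:Ai6, a heterozygous Cre allele at the type 2 deiodinase gene with a Cre-dependent fluorescent reporter. Cochleae were treated with papain, and fluorescent cells were picked singly by suction pipette. The reporter marks cells in which Cre has acted, and their descendants, so a labelled cell need not express Dio2 at collection. The labels name no animal and give 1 group, so the cells count as 1 sample: differences are described by size and by the spread over cells, without a test, and shares refer to the cells that were picked, which need not mirror the tissue.

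In the classical pathway C1q binds antibody, pentraxins or cell debris and activates the proteases C1r and C1s, which cleave C4 and C2. The lectin, alternative and classical routes all meet at C3, whose fragments coat targets for phagocytosis and signal through receptors such as C3aR. The C1 inhibitor inactivates C1r, C1s and the lectin pathway proteases, and tissue macrophages are a known source of C1q.

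The macrophages were sequenced to 3910005 to 4788550 reads per cell, counted over the listed genes, and the mesenchymal cells to 2522853 to 10350249. The numbering of the cells follows the classes, with cells 1 to 12 Ibsp-high and cells 43 to 46 macrophages. The sample titles do not say whether the numbers stand for an order of handling. If they do, that order cannot be told apart from cell class. The macrophages held 10, 11, 11 and 12 of 12 macrophage markers at 10 CPM or more, against 0 to 2 in each mesenchymal cell, and the markers summed to between 12978 and 19949 CPM in macrophages and between 1.21 and 475 CPM in mesenchymal cells. Ptprc, the pan-leukocyte marker CD45, was at 0 in macrophage cell 46. The 5 neutrophil markers had no read in any cell. The name mesenchymal rests on low C1qb. In remaining cells the 6 general fibroblast markers summed to 13.6 to 45445 CPM, against 11.7 to 27.9 CPM in macrophages, so a remaining cell need not hold them. Dio2 was between 0.194 and 0.465 CPM in the macrophages, although every cell is labelled as Dio2-positive. Such low values were not particular to macrophages. Dio2 was at 0.195 CPM in Ibsp-high cell 2, 0 in Otos-high cell 31 and 0.144 CPM in remaining cell 38, while Otos-high cell 24 held 599.8 CPM. Markers of other types were also read in single macrophages. The 3 Schwann cell markers summed to 0.202 to 1002 CPM in macrophages, the highest in cell 43 with 2 of 3 at 10 CPM or more, and to 0 to 787 CPM in mesenchymal cells. The 3 hair cell markers summed to 0 to 105 CPM in macrophages, with 1 of 3 read and the other two at 0, and to 0 to 7.94 CPM in mesenchymal cells. Single genes were Alpl of osteoblasts at 111.7 CPM in cell 43, Pecam1 of endothelium at 149 CPM in cell 44 and Dct of melanocytes at 111.7 CPM in cell 45. Mesenchymal cells held such markers too: the 3 endothelium markers summed to 0 to 87.6 CPM and the 3 melanocyte markers to 0 to 2096 CPM. The part of these markers in the values of the cells that held them was not tested.

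The 3 C1q genes lie side by side on the minus strand of chromosome 4 within 18.7 kb of the mouse genome (RefSeq, GRCm38.p6): C1qb at chr4:136880126-136886200, C1qc at chr4:136889801-136892936 and C1qa at chr4:136895916-136898844. C3ar1 is at chr6:122847140-122856157, Serping1 at chr2:84765360-84775444, C4b at chr17:34728139-34743902 and C3 at chr17:57203967-57228136, all on the minus strand. The promoters of the members that were high in macrophages are shown because these genes were high in the same cells. RefSeq promoter entries matched 4 of the 7 members (C1qb, C1qc, C3 and C3ar1), and the 250 bases before each entry's own start are printed 5′ to 3′ on the gene strand for 3 of them. For C1qc that start lies inside the gene bounds given above, so its window overlaps the outermost annotated end of the gene. Capitals mark GAGGAA, or its complement read on the gene strand, the core letters bound by PU.1, a transcription factor of the myeloid lineage.
C1qb, chr4:136886201-136886450: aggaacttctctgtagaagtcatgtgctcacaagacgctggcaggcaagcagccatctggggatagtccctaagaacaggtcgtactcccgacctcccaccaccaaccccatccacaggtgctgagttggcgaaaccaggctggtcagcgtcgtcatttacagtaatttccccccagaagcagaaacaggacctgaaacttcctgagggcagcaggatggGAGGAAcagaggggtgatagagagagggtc
C1qc, chr4:136892915-136893164: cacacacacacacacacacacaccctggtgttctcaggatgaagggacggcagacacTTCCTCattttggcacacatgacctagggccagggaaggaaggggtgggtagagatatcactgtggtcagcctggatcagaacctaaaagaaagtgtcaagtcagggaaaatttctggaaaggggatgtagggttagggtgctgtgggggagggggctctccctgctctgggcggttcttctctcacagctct
C3ar1, chr6:122856158-122856407: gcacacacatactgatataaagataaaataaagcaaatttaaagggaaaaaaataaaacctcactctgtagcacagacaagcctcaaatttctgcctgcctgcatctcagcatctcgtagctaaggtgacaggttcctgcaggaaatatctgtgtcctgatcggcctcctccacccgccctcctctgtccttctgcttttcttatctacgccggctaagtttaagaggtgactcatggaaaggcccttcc

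C1qb held these letters once on its own strand, 30 bases before the start, and C1qc once on the opposite strand, 193 bases before the start used in its entry. The letters were not in the C3ar1 or the C3 window. The bases just after the start of the C1qb entry were not found in its annotated transcripts, unlike those of the other entries. The C1qb distance therefore depends on the start used. GAGGAA on either strand was in 23.3% of 32851 promoter windows of 250 bases, so a match is common. The STAT letters TTCNNNGAA (7.02% of windows), the interferon-stimulated response element (2.98%) and the NF-kappaB element (0.980%), searched on both strands, were in none of the 4 windows. A match is a description of letters and not a bound site.

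The C1q chains and the C3a receptor were read in all 4 macrophages at 663 CPM or more and lay near 0 in almost every mesenchymal cell. Serping1 had the opposite placement, and C3 and C4b were nearly or wholly absent from both classes. The plot of the 7 genes by cell class shows these levels cell by cell.

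**Figure D1:**
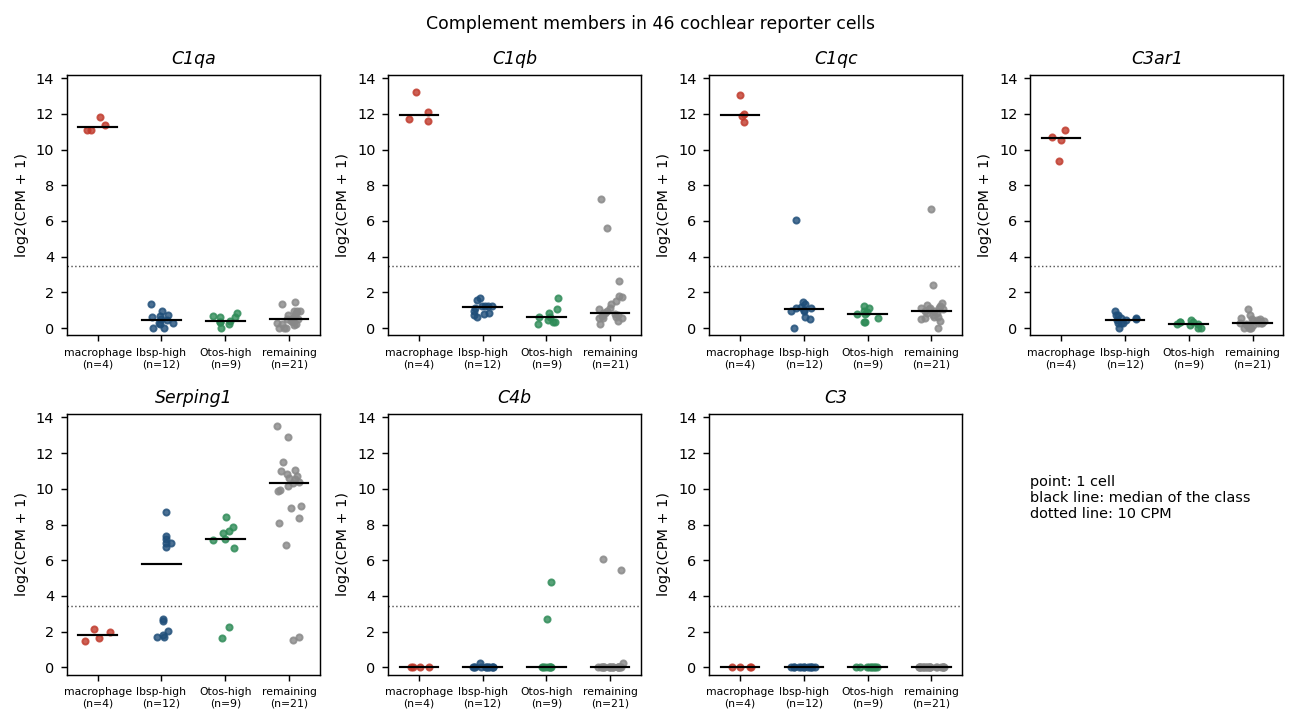
Level of each of the 7 genes, as log2(CPM + 1), in macrophages and in Ibsp-high, Otos-high and remaining mesenchymal cells; each point is a cell, black lines are class medians and the dotted line is 10 CPM. C1qa, C1qb, C1qc and C3ar1 lie at 663 CPM or more in the 4 macrophages, while Serping1 reaches 11532 CPM in mesenchymal cells and at most 3.46 CPM in macrophages.

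C1qa was at 2176, 2200.3, 2681 and 3626 CPM in macrophage cells 43, 44, 45 and 46, against 0 to 1.80 CPM in mesenchymal cells (median 0.416). The classes did not overlap, and no mesenchymal cell reached 10 CPM. C1qc was at 3740, 2970, 4042 and 8564 CPM in the same macrophages, against 0 to 99.5 CPM in mesenchymal cells (median 0.971). C1qc was highest in cell 46, and the classes again did not overlap. C1qb, which defined the classes, was at 3048, 3372, 4311 and 9634 CPM in the macrophages, against 0.170 to 148 CPM in mesenchymal cells (median 0.812). Its separation follows from the definition and is no finding.

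C3ar1, a receptor that draws myeloid cells toward C3a, was at 1649, 1510, 663 and 2184 CPM in macrophage cells 43 to 46, against 0 to 1.13 CPM in mesenchymal cells (median 0.267). All 4 macrophages lay above every mesenchymal cell. On the log2(CPM + 1) scale, macrophages minus mesenchymal cells differed by 10.83 for C1qa (means 11.35 ± 0.34 and 0.52 ± 0.38), 10.95 for C1qc (12.11 ± 0.66 and 1.16 ± 1.25) and 10.07 for C3ar1 (10.43 ± 0.74 and 0.36 ± 0.26; SD over 4 and 42 cells). These differences were many times the spread over cells. They are past the size rule, a difference of at least 2 on this scale, which was met upward by 12.5% and downward by 12.5% of the 13014 genes at 1 CPM or more in at least 3 cells. Non-overlap of macrophages and mesenchymal cells was met by 1.11% of those genes. C3ar1 met the 1 CPM minimum through the macrophages alone, and the C1q genes met it in mesenchymal cells mostly at background values, so their number among the genes past the rule is no support for a difference.

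Of the CPM summed over all cells, macrophages held 99.8% for C1qa, 99.0% for C1qc, 99.8% for C3ar1 and 98.8% for C1qb, while they made up 8.70% of the cells. The share was 0.0242% for Serping1 and 0 for C4b. These shares depend on how many macrophages were picked. The stacked shares place the C1q genes and C3ar1 with the macrophages and Serping1 with the remaining mesenchymal cells.

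**Figure D2:**
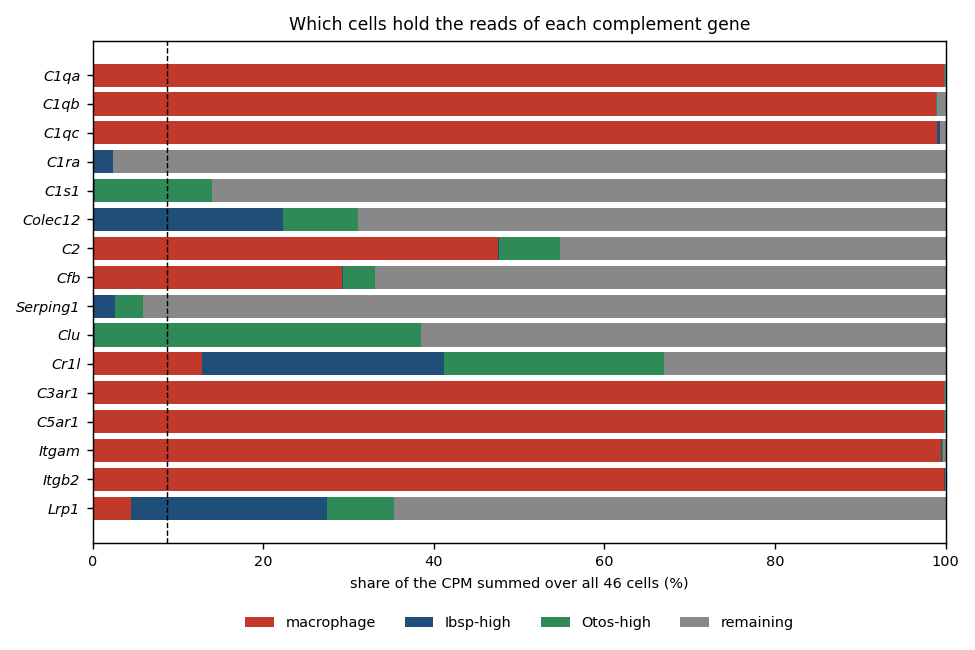
Percent of the CPM summed over 46 cells that lies in macrophages, Ibsp-high, Otos-high and remaining cells, for 16 complement genes in rows; the dashed line marks the macrophages' 8.70% of the cells. Macrophages hold 98.8% to 99.8% of the C1q genes and C3ar1, and remaining cells 94.2% of Serping1.

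Per kilobase of transcript, which allows levels of different genes to be compared, C1qa was at 2092, 2116, 2577 and 3487 CPM per kb in macrophage cells 43 to 46. C1qb was at 2802, 3099.5, 3962 and 8855 CPM per kb and C1qc at 3109, 2469, 3360 and 7119 CPM per kb in the same order. C3ar1 was at 383, 351, 154 and 507 CPM per kb, below each C1q chain in every macrophage. The ratio of C1qa to C1qb in CPM was 0.714, 0.652, 0.622 and 0.376, and that of C1qc to C1qb was 1.23, 0.881, 0.938 and 0.889. C1q protein is built from equal numbers of A, B and C chains. Cell 46 held the most of all 3 chains but the lowest ratio of C1qa to C1qb. Cell 45 was lowest in C3ar1 while second in each C1q chain.

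**Figure D3:**
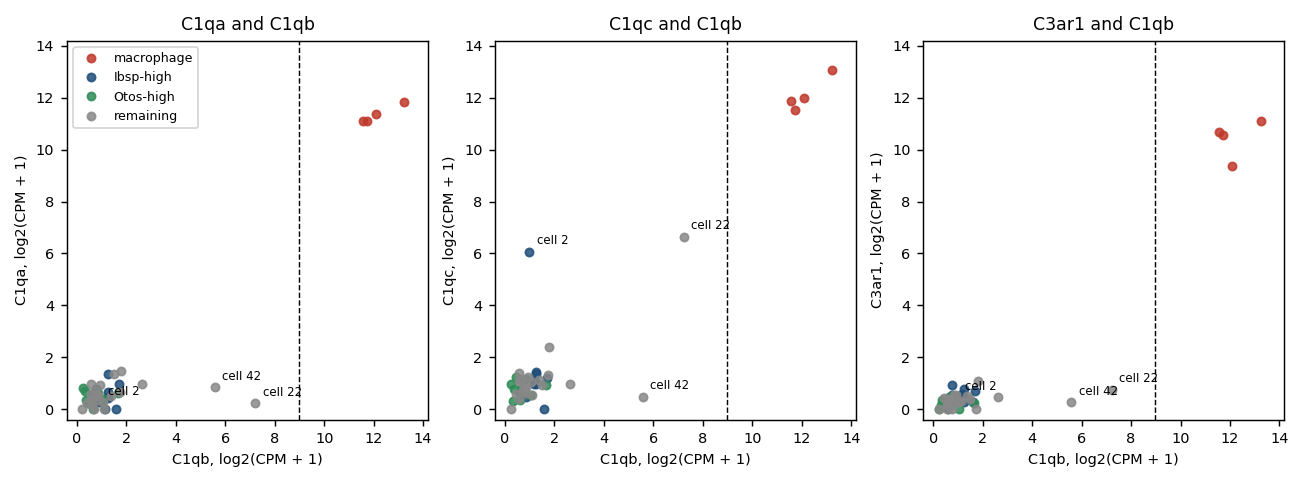
C1qa, C1qc and C3ar1 against C1qb in each cell, all as log2(CPM + 1), coloured by class, with the dashed line at 500 CPM of C1qb. The 4 macrophages are high in all 4 genes, while cell 22 is above 10 CPM in C1qb and C1qc but not C1qa, cell 42 in C1qb alone and cell 2 in C1qc alone.

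3 mesenchymal cells held 1 or 2 C1q chains above 10 CPM. Cell 22 had C1qb at 147.9 CPM and C1qc at 99.5 CPM with C1qa at 0.171 CPM, a C1qa to C1qb ratio of 0.00116. Cell 42 had C1qb at 47.0 CPM with C1qc at 0.397 and C1qa at 0.793 CPM, and Ibsp-high cell 2 had C1qc at 66.3 CPM with C1qb at 0.976 and C1qa at 0.195 CPM. None of the 3 held the chains in the proportions seen in the macrophages. Cells 22 and 42 had 0 of 12 macrophage markers at 10 CPM, and cell 2 had 1, the colony-stimulating factor receptor gene Csf1r at 40.4 CPM. C3ar1 was at most 0.684 CPM in all 3.

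Low values were set beside markers that each class should lack. The median in mesenchymal cells of 8 macrophage markers that averaged at least 50 CPM over all cells was 0 to 0.232% of that average, and the same quantity was 0.179% for C1qa, 0.181% for C1qb, 0.229% for C1qc and 0.204% for C3ar1. The medians of these genes in mesenchymal cells therefore lie at the background level and are not read as expression. In the other direction, the medians of 25 mesenchymal markers in macrophages were 0.0485% to 0.734% of their average, and that of Serping1 was 0.270%. Serping1 below 10 CPM is treated as background for the same reason.

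Serping1 was at 2.10, 2.91, 1.82 and 3.46 CPM in macrophage cells 43 to 46, a total of 49 reads with an exact Poisson 95% interval of 36.3 to 64.8 for counting error. In mesenchymal cells it was 1.85 CPM at the lowest, 217 at the median and 11532 at the highest. No macrophage and 32 of 42 mesenchymal cells were at 10 CPM or more (76.2%, exact Clopper-Pearson 95% interval 60.5% to 87.9%). The classes overlap, because 10 mesenchymal cells were also below 10 CPM. Macrophages minus mesenchymal cells differed by -5.59 on the log2(CPM + 1) scale (means 1.81 ± 0.30 and 7.40 ± 3.48, SD over 4 and 42 cells), and 12.5% of all genes tested were lower in macrophages by at least 2.

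Serping1 values formed a low and a high range, with no value between 5.58 and 103.9 CPM. In Ibsp-high cells it was 2.20 CPM at the lowest, 55.3 at the median and 419.9 at the highest, in Otos-high cells 2.17, 147.6 and 337, and in remaining cells 1.85, 1294 and 11532. At 10 CPM or more were 6 of 12 Ibsp-high cells (50%, interval 21.1% to 78.9%), 7 of 9 Otos-high cells (77.8%, 39.99% to 97.2%) and 19 of 21 remaining cells (90.5%, 69.6% to 98.8%). The intervals of the 3 shares overlap, but they count cells, which are not separate samples. The overlap therefore does not decide whether the classes differ. The upper ranges lay apart: all 12 cells at 1000 CPM or more were remaining cells, and no Ibsp-high or Otos-high cell was above 419.9 CPM.

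On the log2(CPM + 1) scale, Ibsp-high minus other mesenchymal cells differed by -3.77 for Serping1 (means 4.71 ± 2.79 and 8.48 ± 3.17, SD over 12 and 30 cells), and 4.1% of all genes tested were lower by at least 2 in this comparison. Otos-high minus other mesenchymal cells differed by -1.43 (6.28 ± 2.49 and 7.71 ± 3.68, 9 and 33 cells), short of the size rule, which 4% of the genes met downward. Set against the remaining cells alone, whose mean was 9.42 ± 2.99, the differences were -4.71 for Ibsp-high cells, where 4.03% of genes met the rule downward, and -3.14 for Otos-high cells, where 3.7% did. The Ibsp-high difference was a little above the pooled SD of 3.07 over cells, and the Otos-high difference against all others was below its pooled SD of 3.48.

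Cell 38 at 11532 CPM and cell 41 at 7526 CPM, both remaining cells, held 44.8% of the mesenchymal sum of Serping1. Without them its mesenchymal mean was 586 CPM, against 1012 CPM with them, and the differences were -3.43 for Ibsp-high and -1.07 for Otos-high cells. Their marker genes differed. Cell 38 had the gap junction gene Gjb6 at 913 CPM and Cfb, the factor B protease of the alternative pathway, at 359.7 CPM, while cell 41 had Gjb6 at 1.91 CPM, no Cfb read and Clu, the clusterin gene, at 15896 CPM. Both held fibroblast matrix genes, with Dcn at 1207 CPM in cell 38 and 19448 CPM in cell 41. The remaining cells without Serping1 were cell 20 at 2.26 CPM and cell 33 at 1.85 CPM.

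Across the 42 mesenchymal cells, the genes whose order was most like that of Serping1 among 7463 candidates were Loxl1 (Spearman correlation 0.64), Grn (0.62), Plpp3 (0.61), Steap3 (0.60) and Mfap4 (0.57). Loxl1 encodes a crosslinking enzyme of elastic fibres, Mfap4 a microfibril-associated protein and Grn the secreted protein progranulin. Within the 21 remaining cells the correlations were 0.19, 0.28, 0.19, 0.54 and 0.36 in the same order of genes. These cells share their libraries' preparation and differ in depth, and the Spearman correlation with log2 reads per cell was 0.26. With Pearson's correlation 2 of the 5 genes were the same, Loxl1 and Mfap4. The Spearman correlation of Serping1 was 0.40 with Clu and 0.44 with the mean of 16 interferon-response genes.

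C3, the component at which all pathways meet, had 0 reads in 46 cells, of 233355928 reads in the listed genes. For the share of cells with a read, an approximate upper bound of 3 divided by 46 is 6.52%, and the exact Clopper-Pearson upper bound for 0 of 46 is 7.71%. In a single cell 3 reads would correspond to 0.261 to 1.04 CPM. C3 was not detected at this depth in macrophages or in any mesenchymal class. Because it had no read, no difference or most-alike gene can be given for it.

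C4b had no read in the 4 macrophages and was above 0 in 6 of 42 mesenchymal cells. It was at 65.3 CPM in cell 21 and 42.2 CPM in cell 13, both remaining cells, and at 26.96 CPM in cell 28 and 5.597 CPM in cell 29, both Otos-high cells. A single read was found in each of the other two cells, 9 and 18. 3 mesenchymal cells (7.14%, exact interval 1.498% to 19.5%) were at 10 CPM or more, and the macrophage share, 0 of 4, has an upper limit of 60.2%. Macrophages minus mesenchymal cells differed by -0.46, less than the pooled SD of 1.41. C4b shares 34.6% of its 50-base words with the neighbouring copy C4a, so the split of reads between them is uncertain, although C4a had no read. Its most similar gene across mesenchymal cells was Psmg4 (Spearman correlation 0.51), over cells of which most were tied at 0, and none of the 5 most similar genes was shared with Pearson's correlation. Cells 13 and 21 also held Serping1, at 1489 and 1838 CPM, and Otos-high cell 28 did not, at 3.88 CPM.

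The genes of the C1 proteases, the targets of the C1 inhibitor, were at 10 CPM or more only in the mesenchymal class, which is set by low C1qb. C1ra was at 0 to 0.233 CPM in macrophages, against 0 to 295 CPM in mesenchymal cells, of which 8 of 42 were at 10 CPM or more. C1s1 was at 0 to 0.194 CPM in macrophages, against 0 to 349 CPM in mesenchymal cells, of which 6 of 42 were at 10 CPM or more. Both were highest in cell 37, a remaining cell with Dcn at 7.21 CPM and the fibrocyte marker Coch at 59.1 CPM, but Gjb6 at 400 CPM. C1ra and C1s1 were read together in 4 cells. In all 10 cells with either protease Serping1 was at 124 CPM or more, with a median of 1307 CPM, against 147 CPM in the mesenchymal cells with neither. Within the remaining cells the medians were 1593 CPM with either protease and 978 CPM with neither. Of these 10 cells 8 were remaining cells, 1 was Ibsp-high and 1 was Otos-high. Serping1 was at 10 CPM or more in 32 of 42 mesenchymal cells and in 19 of 21 remaining cells, with or without a protease. Its Spearman correlation over the mesenchymal cells was 0.15 with C1ra and 0.32 with C1s1. A link between Serping1 and the proteases was not tested. C1ra shares 48.0% of its 50-base words with C1rb and C1s1 shares 21.8% with C1s2, so the counts of these copies are uncertain.

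C2, the protease of the C4b2a convertase, was at 229 CPM in macrophage cell 44 and at 213 CPM in mesenchymal cell 22 and 33.03 CPM in Otos-high cell 24. Cfb was at 148 CPM in macrophage cell 44 and 69.1 CPM in macrophage cell 46, with none in macrophage cells 43 and 45, and at 359.7 CPM in mesenchymal cell 38. C2 and Cfb were thus read in a few cells of both classes. Cell 22, with C1qb and C1qc but without C1qa, also held Cfb at 121.9 CPM and Serping1 at 2888 CPM.

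Another soluble regulator was placed differently from Serping1. Clu, which encodes a soluble inhibitor of the membrane attack complex, was at 121.7, 7.94, 4.85 and 10.2 CPM in macrophage cells 43 to 46. Its median was 8.94 CPM in Ibsp-high cells, 4135 CPM in Otos-high cells and 789 CPM in remaining cells. Every Otos-high cell held at least 234 CPM, against at most 67.5 CPM in Ibsp-high cells. Otos-high minus other mesenchymal cells differed by 4.65 for Clu, and 5.06% of genes were higher by at least 2. Serping1 differed by -1.43 in that comparison, less than its pooled SD of 3.48, so no opposite direction is claimed. Over the mesenchymal cells the Spearman correlation of the 2 genes was 0.40. Ibsp-high minus other mesenchymal cells differed by -5.94 for Clu (means 3.53 ± 0.93 and 9.47 ± 3.49), the same direction as Serping1. The remaining cells, with 5.18 to 28705 CPM, overlapped both other classes.

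**Figure D4:**
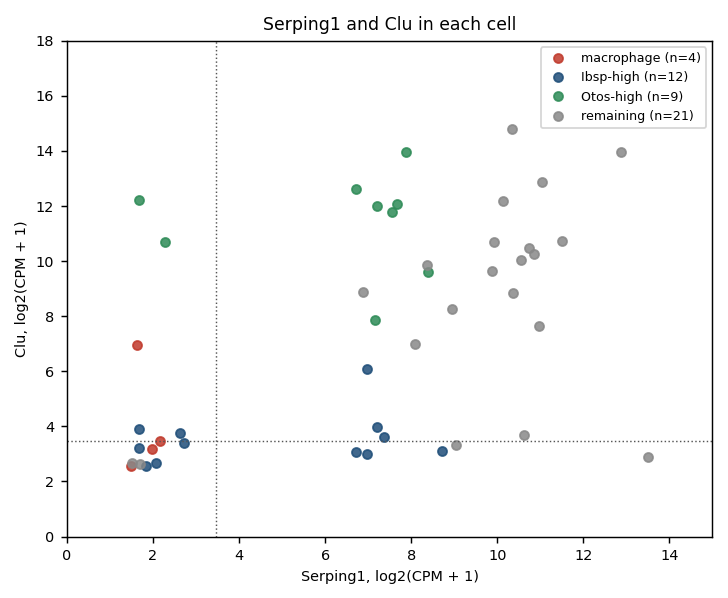
Clu (vertical) against Serping1 (horizontal) in each cell, as log2(CPM + 1), coloured by class, with dotted lines at 10 CPM. Otos-high cells lie at 234 CPM of Clu or more, Ibsp-high cells at 67.5 CPM or less, and cells at 1000 CPM of Serping1 or more are remaining cells.

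Colec12, a collectin of the cell surface, was at 2.02 to 4.07 CPM in macrophages, against a mesenchymal median of 532 CPM with 35 of 42 cells at 10 CPM or more.

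Among membrane regulators, Cr1l, the mouse gene for Crry, was at 64.0, 156, 143 and 261 CPM in macrophage cells 43 to 46 and had a median of 99.7 CPM in mesenchymal cells. It was at 10 CPM or more in 8 of 12 Ibsp-high, 9 of 9 Otos-high and 9 of 21 remaining cells. The classes overlapped. Cd55, which encodes decay-accelerating factor, passed 10 CPM in 1 cell, cell 38, at 327 CPM, and Cd46 in none.

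The other receptors were mostly read in macrophages. C5ar1, the C5a receptor gene, was at 821, 479, 175 and 362 CPM in macrophage cells 43 to 46 and at most 0.594 CPM in mesenchymal cells. Itgb2, the common chain of the complement receptors CR3 and CR4, was at 112, 151, 120.4 and 128 CPM in macrophages and at most 0.231 CPM in mesenchymal cells. Neither overlapped between the classes. Itgam, the CR3 alpha chain, was at 330 and 292 CPM in macrophage cells 43 and 45, at 3.68 CPM in cell 44 and at 0 in cell 46. C5ar2 was at 0.465, 0, 54.8 and 176 CPM in macrophage cells 43 to 46. Cells 45 and 46, lower in C5ar1 than cells 43 and 44, were the 2 macrophages with C5ar2. Lrp1, Calr and C1qbp, which encode C1q-binding or clearance proteins with other roles in most cells, had medians of 173, 396 and 134 CPM in macrophages and 159, 363 and 50.3 CPM in mesenchymal cells.

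The complement lists held 64 genes, of which 63 had a row. No read was found in any cell for 21, among them C3, C4a, Cfd, Cfi, Hc, which encodes C5, and the terminal components C7, C8a, C8b and C9. Medians reached 10 CPM for 15 genes in macrophages and for 8 in mesenchymal cells. The shares of all genes without a read or with such medians are not given here, so these counts are no result about the list. With 4 macrophages such a median can rest on 2 cells, as for Cfb at 148 CPM in cell 44 and 69.1 CPM in cell 46. Beyond the 7 members, 24 listed genes could be compared. Of these 24, 8 were higher in macrophages by at least 2 on the log2(CPM + 1) scale (among them Cfb, Cr1l, C5ar1, Itgam, Itgb2 and C1qbp) and 2 were lower (Colec12 and Clu). Of all genes tested, 12.5% were higher and 12.5% lower in this comparison. The median difference of the 24 was 0.16, against -0.39 over all genes. C5ar1, Itgam and Itgb2 met the 1 CPM minimum through the macrophages alone, so neither this count nor this median supports a difference of the list. For Ibsp-high minus other mesenchymal cells 3 of the 24 were higher, where 5.7% of all genes were. Clu alone was lower, where 4.1% of all genes were. For Otos-high minus others 4 were higher (Clu, Cd59a, Cd59b and Cr1l) and 4 were lower, among them Colec12 and C1qbp. Of all genes, 5.06% were higher and 4% lower in that comparison. Of the 7 terminal pathway genes 1, C8g, could be compared, and it did not pass the rule in any of the 3 comparisons.

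**Figure D5:**
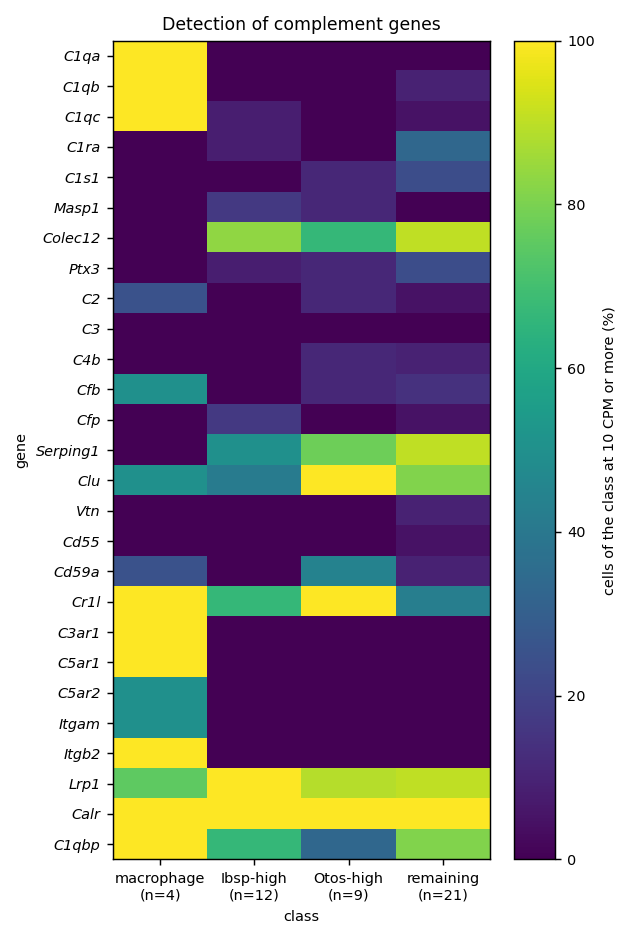
Percent of cells at 10 CPM or more, as colour, for complement genes in rows and macrophages, Ibsp-high, Otos-high and remaining cells in columns. C1qa, C1qb, C1qc and C3ar1 are at 100% in macrophages, Serping1 at 0% in macrophages and 90.5% in remaining cells, Clu at 100% in Otos-high cells and C3 at 0% in every class.

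C1q, C4 and Serping1 are also known as genes that respond to interferon, and 16 interferon-response genes were described beside them. Of the 14 that could be compared, 9 were higher by at least 2 in macrophages than in mesenchymal cells and none was lower, beside 12.5% of all genes in each direction. The 9 included Psmb8, an immunoproteasome subunit, at 190 to 399 CPM in macrophages and 0 to 91.7 CPM in mesenchymal cells, and the class I genes H2-D1, at 1007 to 4260 CPM and 0 to 724 CPM, and B2m, at 1466 to 2924 CPM and 36.8 to 1597 CPM. The median difference of the 14 was 2.84, against -0.39 over all genes. Isg15 passed 10 CPM in 1 macrophage and 4 mesenchymal cells, and Irf7 in none. Stat2, Ifit2, Ifit3, Isg15 and Psmb9 were compared and did not pass the rule. Serping1 was at most 3.46 CPM in the macrophages. Whether interferon bears on any of these levels was not tested.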

How the data were processed

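Single cochlear cells were sequenced from full-length cDNA made with the SMART-Seq v4 kit and from ThruPLEX libraries, per the labels' protocols. Values are CPM deposited by the authors, per the file headers, for 29871 genes and 46 cells. bcl2fastq 2 and STAR 2.7.3a were used with GRCm38 and mm10, per the submitters' processing notes; for the counting program, the gene annotation and strandedness, the choice is not given in the sources used here. Within each cell the listed genes sum to 86.4% to 93.5% of 1000000 per cell. All 100% of values were whole multiples of a step per cell, within 0.01 read, which gave the reads. A count test on these reads could not be run, because there is 1 group and no second sample. The libraries carry no molecular identifiers, so intervals and floors (3 reads) cover counting error only.

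Differences are of mean log2(CPM + 1) with SD over cells, a scale that understates differences of low genes. Genes at 1 CPM or more in at least 3 cells were compared, and the size rule was 2 on this scale. The 95% intervals on cell shares are exact (Clopper-Pearson). Computing used Python 3.11.15, numpy 2.4.6, pandas 2.3.3 and scipy 1.17.1, and was tested on simulated data. No doublet caller was run, because cells were picked singly, and no pair of cells had identical values. Levels per kilobase use transcript lengths from the reference annotation. The named genes are the 7 members, every listed complement gene with a median of 10 CPM in a class or 100 CPM in any cell, and the 5 genes most like a member by Spearman correlation among genes at 10 CPM or more in at least 8 mesenchymal cells. Genes outside the rule, such as Cd46, C8g and marker genes, were named after their values were seen. Counts over the lists include a few genes whose own values are not reported here. Members and lists were chosen with earlier results of these data known. C1s had no row. Alternatives changed the pseudocount, filter, class limits, depth, scaling and cells left out.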

Additional observations from a re-analysis of the deposited data

How the results depend on the processing

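No result was called reversed among 204 alternatives, but only a difference of at least 2 in size could be. Counts, shares and smaller differences could not be called reversed, so for them this decides nothing. The value moved in 36, by more than its spread or, for counts, by over 1.5 times, and in the other 168 it did not. Some of the 168 could not move. A C1qb limit higher than 500 CPM, and choosing macrophages by markers, gave the same 4 macrophages. C4b had no read in macrophages, so leaving out a macrophage could not change its share or its difference. C3 had no read in any cell, so its counts were fixed. The number 168 is therefore no measure of how stable the results are. No paired analysis was possible because the labels give 1 group and no animal. The pseudocount set the size of the differences: macrophages minus mesenchymal cells differed with a pseudocount of 0.1 by 12.52 for C1qa and 12.02 for C3ar1, and with 10 by 7.97 for C1qa, 8.54 for C1qb, 8.52 for C1qc and 7.08 for C3ar1. With 10, genes past the size rule were 664 higher and 485 lower in macrophages, 174 and 160 in Ibsp-high cells, and 183 and 102 in Otos-high cells, against 1629 and 1627, 742 and 534, and 658 and 521 with 1.

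A C1qb limit of 100 CPM, which moves cell 22 to the macrophages, gave 8.60 for C1qa and 8.14 for C3ar1, and macrophage shares of 99.6% for C1qb, 99.5% for C1qc and 6.82% for Serping1. The Serping1 difference was then -3.55, against -5.59, a change within its spread of 3.36. Bone cells taken by the osteoblast genes Sp7 or Dlx5 at 100 CPM or more, in place of Ibsp, gave -2.75 for Serping1, against -3.77. Without the highest mesenchymal cell the shares were 99.6% for C1qb and 99.5% for C1qc. At 1 CPM in place of 10, cells counted were 4 macrophages for Serping1 and mesenchymal cells numbering 3 for C1qa, 18 for C1qb, 18 for C1qc and 1 for C3ar1. At 100 CPM, mesenchymal cells numbered 1 for C1qb, 0 for C1qc and 0 for C4b. Of the 5 genes most like them, Serping1 kept 2 and C4b 0 under Pearson's correlation.

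Leaving out each macrophage in turn gave differences of 10.67 to 10.92 for C1qa, 10.57 to 11.12 for C1qb, 10.63 to 11.14 for C1qc, 9.85 to 10.42 for C3ar1 and -5.71 to -5.48 for Serping1. Shares were 99.71% to 99.76% for C1qa, 97.8% to 98.6% for C1qb, 98.1% to 98.8% for C1qc, 99.67% to 99.76% for C3ar1 and 0.0160% to 0.0199% for Serping1, with 1622 to 1935 genes higher and 1746 to 1909 lower. The 4 macrophages were the same cells when chosen by at least 6 of 12 markers. Choosing by markers, and leaving out cells 2, 22 and 42 or cells 38 and 41, were decided after seeing the data, as was setting the Ibsp-high and Otos-high cells against the remaining cells alone. With 4 macrophages, expression in a minority of such cells can be missed, and C3 below 1.04 CPM could not be seen in the shallowest cell.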

Other observations

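Several complement genes that fit no class comparison were read in 1 or a few cells. Ptx3, which encodes the secreted pentraxin 3 that binds C1q, was at most 0.648 CPM in macrophages and reached 3146 CPM in mesenchymal cell 42, the cell that held C1qb without the other chains; 7 of 42 mesenchymal cells were at 10 CPM or more. Masp1, a lectin pathway protease, was at most 0.194 CPM in macrophages and was at 226 CPM in Otos-high cell 31 and 193 CPM in Ibsp-high cell 10. Vtn, which encodes vitronectin, an inhibitor of the terminal complex, had no read in macrophages. It was at 255 CPM in cell 38, the cell with the most Serping1 and Cd55, and at 203 CPM in remaining cell 34. Cfp, the properdin gene, was at most 0.216 CPM in macrophages and reached 101 CPM in Ibsp-high cell 11. C1rl was at 80.6 CPM in macrophage cell 45 and 133 CPM in mesenchymal cell 34. Susd4, a complement regulator gene, had no read in macrophages and was at 102 CPM in Otos-high cell 32. Each of these rests on 1 or a few cells and was not tested.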
